A study of Rattus norvegicus with 18 samples.

Results

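The let-7 family main strands and miR-98 were examined in rat skeletal muscle. Members were taken by name from the deposited table of counts, as every known miRNA called let-7 with the ending -5p (let-7a, let-7b, let-7c, let-7d, let-7e, let-7f, let-7g and let-7i) together with miR-98-5p, which made 9 of the 909 entries in the table. The table holds 763 known miRNAs and 146 candidates predicted by the authors. The study sequenced small RNA from the gastrocnemius, a calf muscle, of 18 male Brown Norway rats, and asked how the miRNAs of muscle differ with age and with caloric restriction (CR). Young AL rats ate ad libitum (AL) and were killed at 6 months, old AL rats ate ad libitum until 28 months, and old CR rats were killed at 28 months after receiving 55% of the ad libitum ration from the age of 2 months. Each group had 6 rats with 1 library each (young AL replicates 1 to 6, old AL 7 to 12, old CR 13 to 18), and no young CR group was analysed here, so that old CR differed from young AL in both age and diet.

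The let-7 miRNAs are among the oldest known animal miRNAs and keep nearly the same sequence from worms to mammals. A miRNA pairs with its targets mainly through its seed, a short stretch near the 5′ end, and miRNAs with the same seed can repress the same mRNAs. The family is known for holding back growth and cell division genes such as Ras, Myc and Hmga2, and it accumulates as cells differentiate. Its maturation is blocked in undifferentiated cells by the RNA-binding protein Lin28.

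The 9 mature sequences are shown because they define the family and because some members differ by so little that the assignment of reads to them matters. They are the RefSeq sequences of the rat genome GRCr8, which matched 9 of 9 members by name, and capitals mark the seed (bases 2 to 8 from the 5′ end).
rno-let-7a-5p: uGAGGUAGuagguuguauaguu
rno-let-7b-5p: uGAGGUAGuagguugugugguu
rno-let-7c-5p: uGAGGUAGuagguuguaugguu
rno-let-7d-5p: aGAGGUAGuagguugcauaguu
rno-let-7e-5p: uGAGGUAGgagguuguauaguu
rno-let-7f-5p: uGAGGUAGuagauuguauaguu
rno-let-7g-5p: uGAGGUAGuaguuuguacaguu
rno-let-7i-5p: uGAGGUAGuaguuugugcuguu
rno-miR-98-5p: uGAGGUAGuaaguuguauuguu

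All 9 were 22 nt long with the seed GAGGUAG, which was found in 9 of the 693 rat mature miRNAs listed by RefSeq (1.3%) and in 0 outside the family. Counted from the 5′ end and with the base of let-7a first, let-7c differed from let-7a by A19G, let-7e by U9G and let-7f by G12A. Further from let-7a were let-7b (A17G and A19G), let-7d (U1A and U16C), let-7g (G12U and U18C), miR-98 (G11A and A19U) and let-7i (G12U, A17G, U18C and A19U). Over the 36 pairs of members the number of differing bases was 1 to 6, and 4 pairs differed at 1 base. The split of reads between members 1 base apart, such as let-7a and let-7c, is uncertain, as the sources used here do not give the assignment of reads that match several miRNAs.

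The family is encoded by 12 genes in GRCr8, whose mature positions are given here from RefSeq because the deposited table carries no coordinates. The let-7a strand is encoded by Mirlet7a-2 (chr8:50805219-50805240, + strand), inside Mir100hgl and beside Mir100, and by Mirlet7a1 (chr17:16320145-16320166, + strand). Mirlet7a1 lies in a cluster with a let-7f gene listed as Mirlet7f-1os (chr17:16320508-16320529, + strand) and with Mirlet7d (chr17:16322273-16322294, + strand), all inside the long non-coding RNA gene LOC120097935. Mirlet7c2 (chr7:118683636-118683657, + strand) and Mirlet7b (chr7:118684044-118684065, + strand) lie side by side outside any other annotated gene. Mirlet7c1 (chr11:29688127-29688148, + strand) lies beside Mir99a in the long non-coding RNA gene LOC103693508. Mirlet7e (chr1:67350243-67350264, + strand) lies beside Mir99b and Mir125a within Spaca6. Mirlet7f2 (chrX:24460052-24460073, + strand) and Mir98 (chrX:24460663-24460684, + strand) both lie within Huwe1, which encodes a ubiquitin ligase. Mirlet7g (chr8:115701026-115701047, + strand) overlaps Wdr82 and Rpl29, and Mirlet7i (chr7:60527935-60527956, - strand) overlaps the predicted gene LOC134479799.

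Library totals were 34940346 to 83110905 counts, of which the members took 1.26% to 2.57%. Every total exceeded the mapped reads that the paper's supplement gives for the same sample number. Shares are therefore of counts, not of reads, since a read may stand in several entries. The entries miR-1-3p, miR-1b and miR-3571, with any predicted candidate whose counts match miR-1b, are called the miR-1 entries here and took 60.7% (old AL replicate 7) to 86.8% (old AL replicate 11). Normalization factors by the trimmed mean of M values (TMM) were highest in old AL replicate 7 (2.14, beside at most 1.37 in the others), which stood apart, and lowest in old AL replicate 11 (0.639), close to old CR replicate 13 (0.659). Levels are given as CPM, the count of a miRNA relative to its TMM-scaled library total, with factors from all 18 libraries. The tests used factors from the 12 libraries compared, so libraries with nearly equal levels can change order between the 2 scalings. The summed CPM of 6 striated muscle miRNAs was 70542 to 187671, that of 2 endothelial miRNAs 3831 to 8098, and that of 3 fibroblast miRNAs 1016 to 2276. The sum of 5 leukocyte miRNAs was 107 to 604 and that of 3 erythroid miRNAs 3.29 to 11.7. The liver miRNA miR-122-5p was at 0.570 to 38.4 CPM in the young AL group, 49.0 to 772 in old AL and 102 to 186 in old CR, and 3 neural miRNAs summed to 6.77 to 20.4, 11.1 to 34.6 and 18.6 to 147 CPM in the same order. The part of other cell types in the group differences was not tested, and in whole muscle fewer cells of a type cannot be told apart from less RNA per cell.

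All 9 members were detected in all 18 libraries, with a lowest count of 1822 (miR-98-5p in young AL replicate 3). All members have the same length, so their levels in CPM are set side by side without a correction for length. Whether adapter ligation and PCR took up each sequence equally was not tested. The order is therefore one of counts, within the uncertain split of reads between near-identical members. The most abundant were rno-let-7f-5p at 3955 ± 1016 CPM and rno-let-7i-5p at 3949 ± 658 CPM (SD, n = 18), at ranks 17 and 18 of the 623 known miRNAs ranked. Next came rno-let-7g-5p (3364 ± 677), rno-let-7c-5p (2019 ± 395) and rno-let-7a-5p (1460 ± 321), then let-7b-5p (723 ± 133) and let-7d-5p (617 ± 139). The lowest were rno-let-7e-5p at 103 ± 25.0 CPM, rank 81, and rno-miR-98-5p at 48.5 ± 11.6 CPM, rank 102.

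Not every step in this order was larger than the spread between libraries. The leading pair could not be ordered, since let-7f-5p was above let-7i-5p in 8 of 18 libraries and below it in 10, with a ratio of 0.670 to 1.46. Likewise let-7b-5p exceeded let-7d-5p in 13 of 18 libraries. By contrast let-7i-5p was above let-7g-5p in 17 of 18 libraries and let-7g-5p above let-7c-5p in 17 of 18. The steps from let-7c-5p to let-7a-5p, from let-7a-5p to let-7b-5p, from let-7d-5p to let-7e-5p and from let-7e-5p to miR-98-5p were in the same direction in all 18 libraries.

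**Figure D1:**
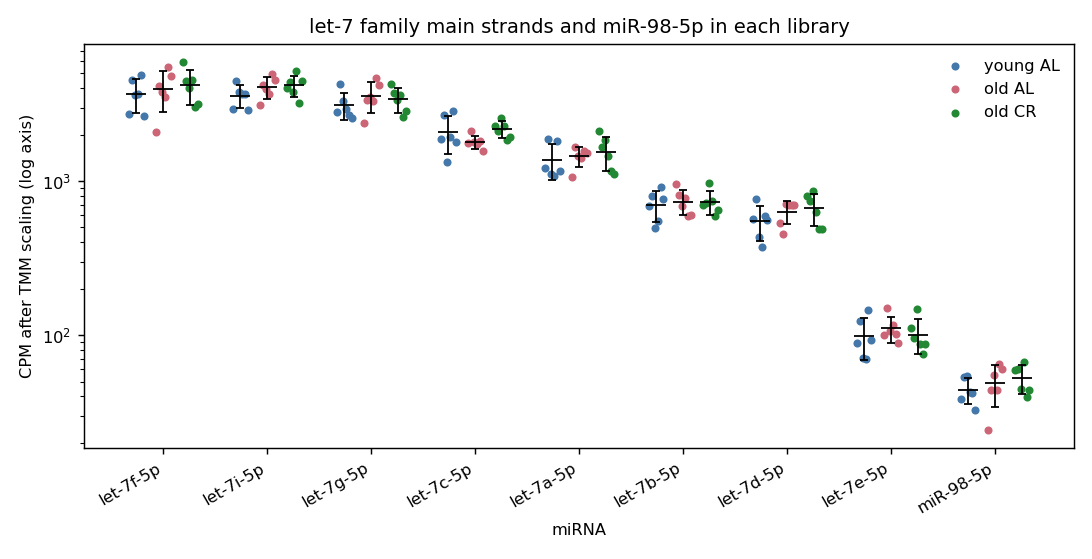
CPM after TMM scaling (log axis) of the 9 members in each of the 18 libraries, coloured by group, with the mean and SD of each group of 6 as black marks. The members span from about 48.5 CPM (miR-98-5p) to 3955 CPM (let-7f-5p), and the 3 groups overlap for every member.

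The summed level of the family overlapped between the 3 groups, and its difference between them was not tested. In young AL the sum was 12531 CPM at the lowest, 14310 at the median and 19602 at the highest. In old AL it was 12030, 16510 and 20066, and in old CR 13073, 17794 and 20308. The ranges overlapped almost fully, and the group means of 15231 ± 2794, 16430 ± 2733 and 17055 ± 2649 CPM (SD, n = 6) lay within 1 SD of each other. The lowest old AL value belonged to replicate 7 and the highest to replicate 11, the libraries with the extreme shares of miR-1. As a share of all counts other than those of miR-1 the members took 7.09 ± 1.15%, 7.90 ± 1.41% and 7.54 ± 0.593% in the same order.

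With age, in old AL against young AL, none of the members passed the test. A call required both an adjusted p no higher than 0.05 in edgeR's quasi-likelihood test and a change of 1.5-fold or more, and 0 of 9 members were called, against 24 of 732 entries tested (3.28%). With DESeq2 it was also 0 of 9, against 84 entries (11.5%). At an unadjusted p under 0.05 there were 0 of 9 members, against 171 entries (23.4%), and the 2 groups of libraries did not overlap for 0 of 9 members and for 3.55% of all entries. The point estimates were above 0 for 8 members and below 0 for let-7c-5p, with a median log2 fold change of 0.16 beside 0.06 over all entries tested.

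The most abundant members illustrate the overlap. The lowest, median and highest levels of let-7i-5p were 2878, 3698 and 4492 CPM in young AL and 3110, 4086 and 4986 in old AL. The medians were apart by less than the range within either group, and 2 old AL libraries were above all young AL libraries. The log2 fold change was 0.20 (SE 0.147, adjusted p = 0.460 in edgeR), the lowest adjusted p among the members in this comparison. For let-7f-5p the young AL values were 2662, 3667 and 4901 CPM and the old AL values 2083, 3966 and 5534. Old AL thus enclosed the whole young AL range, with replicate 7 at the bottom and replicate 11 at the top, and the log2 fold change was 0.12 (SE 0.234, adjusted p = 0.831 in edgeR). The least abundant member, miR-98-5p, was at 32.8, 42.3 and 54.5 CPM in young AL and at 24.4, 49.7 and 65.1 CPM in old AL. It followed the same pattern, with 3 old AL libraries above and 1 below all young AL libraries and a log2 fold change of 0.16 (SE 0.232, adjusted p = 0.750 in edgeR), which was 0.06 without old AL replicate 11 and 0.28 without old AL replicate 7.

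Only let-7c-5p had a lower mean in old AL than in young AL. Its lowest, median and highest levels were 1330, 1902 and 2850 CPM in young AL and 1574, 1788 and 2109 CPM in old AL. All 6 old AL libraries lay inside the young AL range, and the log2 fold change of -0.21 (SE 0.175, adjusted p = 0.533 in edgeR) did not pass the test. The estimate was -0.11 without young AL replicate 5 and -0.31 without young AL replicate 3. The 95% interval of the change lay within 1.5-fold either way for 3 of 9 members (let-7a, let-7b and let-7i), a property shared by 10.8% of all entries tested. For the other 6 members a change of 1.5-fold in one direction remained inside the interval. The share over all entries covers entries of every level, whereas the members held ranks 17 to 102 of 623 known miRNAs. Entries of a like level were not compared separately.

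**Figure D2:**
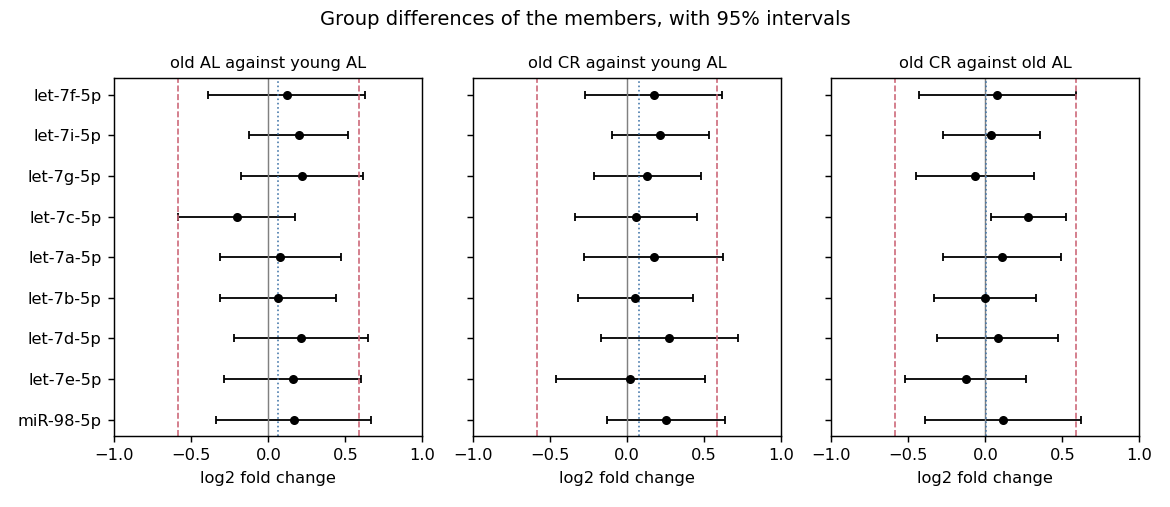
Log2 fold change of each member (points) in the 3 comparisons, with a 95% interval derived from edgeR's F statistic. Dashed lines mark 1.5-fold either way and a dotted line the median of all entries tested. All points lie between -0.21 and 0.28, and the interval of let-7c-5p in old CR against old AL is the only one that excludes 0.

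In old CR against young AL the members again gave no call. In edgeR 0 of 9 members were called, against 68 of 730 entries tested (9.32%), and in DESeq2 0 of 9 against 109 (14.9%). An unadjusted p under 0.05 was found for 0 of 9 members and 25.5% of all entries, and separate groups of libraries for 0 of 9 members and 5.75% of all entries. All 9 estimates were above 0, from 0.02 for let-7e-5p to 0.28 for let-7d-5p, with a median of 0.17 beside 0.08 over all entries. That direction depended on the scaling, since with library totals alone 5 members were higher and 4 lower, and the median of all entries moved from 0.08 to -0.05. Levels of let-7i-5p in old CR were 3223, 4211 and 5151 CPM (lowest, median and highest). Only 1 of these 6 libraries was above all young AL libraries, and the log2 fold change was 0.22 (SE 0.145, adjusted p = 0.404 in edgeR). For let-7d-5p, with the largest estimate, the levels were 550 ± 139 CPM in young AL and 667 ± 159 in old CR (SD, n = 6), a log2 fold change of 0.28 (SE 0.205, adjusted p = 0.464 in edgeR). The 95% interval lay within 1.5-fold either way for 5 of 9 members (let-7b, let-7c, let-7e, let-7g and let-7i), against 13.2% of all entries, whatever their level.

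Between the diets at the same age, in old CR against old AL, 0 of 9 members were called in edgeR, against 2 of 736 entries tested (0.272%). DESeq2 called 0 of 9 members, against 19 entries (2.58%). Estimates were above 0 for 6 members and below 0 for let-7b, let-7e and let-7g, with a median of 0.08 beside 0.01 over all entries. The 95% interval lay within 1.5-fold for 7 of 9 members, all but let-7f and miR-98, against 13.9% of all entries, whatever their level. The SE was at most 0.233 among the members and at most 7.22 over all entries, and entries of a like level were not compared separately. Under library totals alone all 9 estimates were below 0, with a median of -0.14, while the median of all entries was -0.27. So the direction of the members in this comparison depended on the scaling.

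The member furthest from 0 was let-7c-5p, which had 1574, 1788 and 2109 CPM in old AL (lowest, median and highest) and 1843, 2193 and 2588 CPM in old CR. In 3 of 6 old CR libraries its level was above every old AL library, and the other 3 lay inside the old AL range. With the scaling of the test, over the libraries of this comparison alone, it was 4 of 6. The log2 fold change was 0.28 (SE 0.111, 95% interval 0.03 to 0.52, unadjusted p = 0.0285, adjusted p = 0.392 in edgeR), and the adjusted p was 0.152 in DESeq2. It was the 1 member of 9 with an unadjusted p under 0.05, against 88 of the entries tested (12%). Leaving out each library in turn gave 0.22 to 0.33, but with library totals alone the estimate was -0.01.

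Shares within the family do not depend on how libraries are scaled. The abundant members let-7f, let-7i and let-7g together took 63.1% to 75.9% of the members' counts (median 69.6%). The share of let-7c-5p was 13.6 ± 2.29% in the young AL group, 11.2 ± 2.24% in old AL and 12.9 ± 1.35% in old CR (SD, n = 6). These ranges overlapped, running from 9.33% to 16.1%, from 8.66% to 14.7% and from 11.2% to 14.7%. Against let-7a-5p, from which it differs at 1 base, let-7c-5p stood at a ratio of 1.51 ± 0.187, 1.27 ± 0.217 and 1.44 ± 0.242 in the same order, again with overlapping ranges.

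The make-up of the family also varied between libraries of the same group. Over all 18 libraries the highest ratio was 1.68 times the lowest for let-7g-5p to let-7i-5p, 1.72 times for let-7c-5p to let-7a-5p and 1.74 times for let-7f-5p to miR-98-5p. The widest of the ratios examined between members, let-7f-5p to let-7b-5p, ran from 2.19 in old AL replicate 7 to 9.37 in old AL replicate 11, a span of 4.28-fold within 1 group, while the mean was 5.42 for young AL and 5.79 for both old groups. Old AL replicate 7 had the lowest CPM of its group for let-7a, let-7f, let-7g, let-7i and miR-98, and the highest for let-7b. Its share of let-7b-5p was 7.91%, while in old AL replicate 11 it was 2.94%. Without old AL replicate 7 the members' median log2 fold change was 0.24 in old AL against young AL. There 0 of 9 were called, beside 20 of all entries. In old CR against old AL the median was -0.03. In that fit 0 of all entries were called, so the 0 of 9 says nothing about the members. Without old AL replicate 11 the medians were 0.11 and 0.10, again with 0 of 9 called. With 1 library left out at a time, 9 to 20 and 0 to 3 of all entries were called, in the same order.

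**Figure D3:**
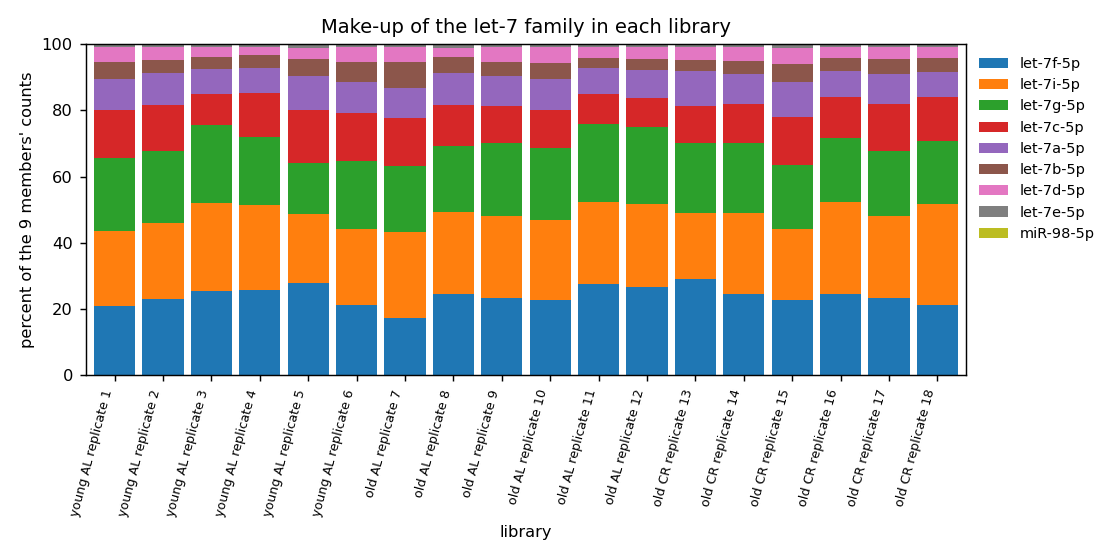
Percent of the summed counts of the 9 members taken by each of them, in each library (bars add up to 100). let-7f, let-7i and let-7g fill 63.1% to 75.9% of every bar, and the share of let-7b is widest in old AL replicate 7 (7.91%).

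Next to the members, the table lists 4 miRNAs annotated on the opposite strand of let-7 genes, miR-3596a to miR-3596d. Their sequences are shown because each is the reverse complement of a let-7 main strand, over its whole length.
miR-3596a: aacuauacaaccuacuaccuca
miR-3596b: aacuaugcaaccuacuaccu
miR-3596c: acuauacaaccuccuaccuca
miR-3596d: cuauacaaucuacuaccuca

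Their counts tracked those of the main strands they mirror. In every library miR-3596b had 0.996 to 0.998 times the count of let-7d-5p, miR-3596c 0.991 to 1.01 times that of let-7e-5p, and miR-3596d 0.975 to 0.980 times that of let-7f-5p. Over all libraries let-7d-5p had 695671 counts and miR-3596b 693688. The entry miR-3596a, which mirrors let-7a exactly and let-7c, let-7e and let-7f with 1 mismatch, had 1.85 to 2.47 times the count of let-7a-5p but 0.864 to 0.912 times that of let-7a-5p and let-7c-5p together. Reads of a let-7 strand and of its antisense entry cannot be told apart in this table, as the sources used here do not give the strand setting of the counting. The 4 entries held 0.581% to 1.10% of a library's counts. In edgeR 0 of 4 were called in old AL against young AL, beside 3.28% of all entries tested. It was 0 of 4 beside 9.32% in old CR against young AL and beside 0.272% in old CR against old AL. Since miR-3596b, miR-3596c and miR-3596d repeat the counts of let-7d, let-7e and let-7f, this is not a result separate from that of the members.

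**Figure D4:**
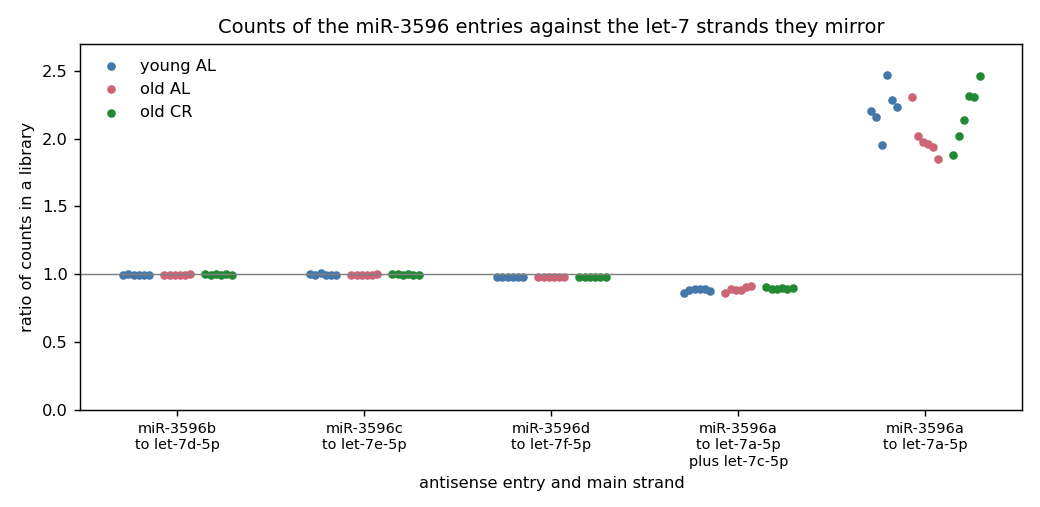
Count of each miR-3596 entry divided by the count of the let-7 main strand it mirrors, 1 point per library and coloured by group, with a line at 1. The entries miR-3596b, miR-3596c and miR-3596d lie between 0.975 and 1.01 in all 18 libraries, and miR-3596a lies near 2 against let-7a-5p alone and at 0.864 to 0.912 against let-7a-5p plus let-7c-5p.

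The other arm of each hairpin, the passenger strand, is usually degraded after the main strand is loaded into Argonaute. The table lists 12 passenger entries, of which let-7a-1-3p and let-7c-2-3p have the same sequence and the same 18221 counts. With this shared pair counted once, the members had 84.5 to 283 times as many counts as the passenger entries together. Among let-7b, let-7d, let-7e, let-7f, let-7g and let-7i, let-7d put the highest share on its 3p arm, 6.11% to 16.7% of the counts of both arms, with means of 11.6 ± 3.36% in the young AL group, 11.5 ± 3.91% in old AL and 8.65 ± 2.06% in old CR (SD, n = 6). For let-7e the share was 0.574% to 1.88%, for let-7b 0.312% to 1.23%, for let-7f 0.0432% to 0.131% and for let-7i 0.0240% to 0.0677%, and let-7g-3p had 62 counts over all libraries. In the 3 comparisons 0 of 12 passenger entries were called in edgeR, beside 3.28%, 9.32% and 0.272% of all entries tested. With the shared pair counted once, the median log2 fold change of the 11 entries was 0.19 in old AL against young AL, with 4 of 11 below 0 beside 43.4% of all entries tested. It was -0.26 in old CR against young AL (10 of 11 below 0, beside 44.2%) and -0.33 in old CR against old AL (9 of 11, beside 49.3%). Some of these entries also had few counts over all libraries, with 63 for let-7a-2-3p, 89 for miR-98-3p and 267 for let-7c-1-3p. Other scalings were not examined for the passenger entries. In the same comparisons the medians of the members were 0.16, 0.17 and 0.08 and those of all entries 0.06, 0.08 and 0.01, and the comparisons share their groups of libraries.

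Several let-7 genes are transcribed together with miRNAs of the miR-99/100 and miR-125 families, and 5 of these partners were examined. None of the 5 was called in edgeR in any of the 3 comparisons, beside 3.28%, 9.32% and 0.272% of all entries tested. The widest separation was that of miR-99a-5p, whose gene adjoins Mirlet7c1. Its lowest, median and highest levels were 5737, 7701 and 11510 CPM in the young AL group, 4899, 5936 and 6868 in old AL and 6920, 8089 and 10241 in old CR. All 6 old CR libraries were above all 6 old AL libraries, whereas old AL and young AL overlapped.

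For miR-99a-5p the log2 fold change in old CR against old AL was 0.51 (SE 0.127), a fold of 1.42, below the required 1.5. The adjusted p was 0.319 in edgeR and 0.00216 in DESeq2, and the exact two-sided permutation test over the 924 arrangements gave p = 0.00216 before adjustment, the smallest it can give. Groups did not overlap for 4 of the 736 entries tested (0.543%). The estimate was 0.44 to 0.56 when each library was left out in turn and 0.19 with library totals alone. In old AL against young AL its log2 fold change was -0.51 (SE 0.174, adjusted p = 0.118 in edgeR and 0.0359 in DESeq2), and in old CR against young AL it was -0.02 (SE 0.176, adjusted p = 0.977 in edgeR). The signs of these 3 estimates were the same as for let-7c-5p except in old CR against young AL, where let-7c-5p stood at 0.06, and these comparisons share libraries. The let-7c-5p strand is also encoded by Mirlet7c2, which has no miR-99 gene beside it, and the counts do not tell the 2 genes apart.

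**Figure D5:**
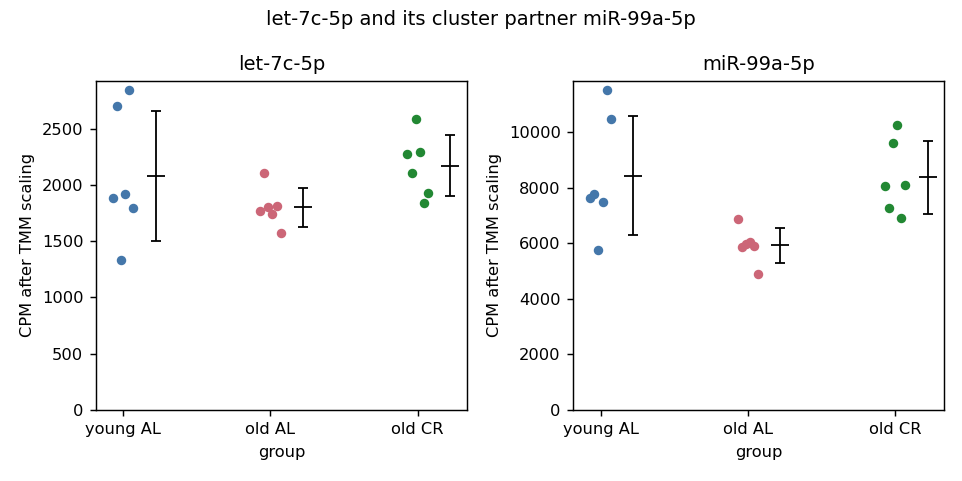
CPM after TMM scaling of let-7c-5p and of miR-99a-5p in each library by group, with the mean and SD (n = 6) beside the points. For miR-99a-5p the old CR libraries (6920 to 10241) lie above all old AL libraries (4899 to 6868), while for let-7c-5p 3 of 6 old CR libraries do.

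The partner of let-7a-2, miR-100-5p, was at 764 ± 112 CPM in the young AL group, 607 ± 85.7 in old AL and 579 ± 90.2 in old CR (SD, n = 6). Of the old CR libraries 5 of 6 were below all young AL libraries. The log2 fold change was -0.34 (SE 0.128, adjusted p = 0.153 in edgeR) in old AL against young AL. For old CR against young AL it was -0.40 (SE 0.138, adjusted p = 0.0878 in edgeR and 0.00953 in DESeq2), again short of 1.5-fold. For let-7a-5p, which is also made from chromosome 17, the same comparisons gave 0.08 (SE 0.181) and 0.17 (SE 0.208). The remaining partners miR-99b-5p, miR-125a-5p and miR-125b-5p had log2 fold changes between -0.29 and 0.15 with adjusted p of at least 0.453 in edgeR. The entry miR-125b-5p also shared its counts with its own antisense entry miR-3588 (1958286 and 1952739 in all).

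Outside the members, passenger strands and miR-3596 entries, 154 known miRNAs, the partners included, had at least 10 CPM on average. The 5 whose level was most like the summed level of the members over the 18 libraries were miR-1839-5p (Spearman rho 0.754), miR-1b (0.736), miR-3571 (0.736), miR-1-3p (0.682) and miR-20a-5p (0.682). These values are a description without a test, and they share the scaling of each library. By their RefSeq sequences miR-1b differs from miR-1-3p at 1 base, and the reverse complement of miR-3571 holds 21 of the 22 bases of miR-1-3p in an unbroken run, so the split of reads between these entries is uncertain.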

How the data were processed

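Small RNA libraries of 18 rats were sequenced by the authors, who trimmed adapters (cutadapt 1.2.1) and low-quality ends, discarded reads under 12 nt and identified miRNAs with miRDeep2. The paper names featureCount as the source of the raw counts that it tested. The submitters' notes also name Bowtie2 2.4.0 and Rnor_6.0. The authors deposited raw counts for each miRNA and library, without normalization. Such choices as the miRBase release, strand setting and handling of multiply matching reads, not given in the sources used here, could shift counts between members. Every column was matched to a sample (0 left unused).

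Counts were scaled with TMM and tested with edgeR 4.0.16 (R 4.3.3), by the quasi-likelihood test with robust dispersion, two-sided, fitting 2 groups (12 libraries) at a time. A total of at least 10 counts was required, and p was adjusted by Benjamini-Hochberg over all of them. DESeq2 1.42.0, exact permutation tests, other scalings and filters, and leaving out each library were alternatives. Scripts were tested on simulated data. For the members, the spread between libraries limits precision more than depth does. With 1 library per rat, differences between rats cannot be told apart from those of library preparation. Reads carry no molecular identifiers.

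Named entries were the members, their passenger strands, antisense entries and entries with matching counts (within 10% or 2 counts in every library), 5 cluster partners and the 5 miRNAs most like the members' sum. Members and lists were chosen with earlier results of these data known. RefSeq (GRCr8) gave sequences, positions and neighbouring genes (within 10000 bases).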

Additional observations from a re-analysis of the deposited data

Results flagged for a closer look

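In 57 groups of 6 libraries checked for a value far from the others (Dixon's test at the 95% level), 3 were marked, and chance marks about 1 in 20. The level of let-7a-5p in old AL replicate 7 was 1058 CPM, while the other old AL libraries had 1417 to 1662 CPM. The share of let-7e-5p among the members in old CR replicate 15 was 0.834%, against 0.469% to 0.589% in the other old CR libraries. The share of let-7g-5p in young AL replicate 5 was 15.2%, against 20.5% to 23.3% in the other young AL libraries.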

How the results depend on the processing

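In all 3 comparisons 0 of 9 members were called under every alternative that was run, over 720 values, and the lowest adjusted p was 0.152 (DESeq2, let-7c-5p in old CR against old AL). Signs were less stable, and 29 values changed sign, apart from those with a library left out. The cause was not tested. In old CR against young AL, upper-quartile factors gave log2 fold changes of -0.019 for let-7b, -0.0075 for let-7c and -0.033 for let-7e. Library totals alone gave -0.059 for let-7b, -0.054 for let-7c, -0.080 for let-7e and -0.0078 for let-7g. The edgeR filter filterByExpr gave -0.023, -0.015 and -0.053 for let-7b, let-7c and let-7e. For let-7e the value was -0.020 with totals without miR-1, -0.022 without a count filter and -0.012 with shared entries counted once. For miR-99a-5p it was 0.0089 as the difference of mean log2 CPM in the permutation test. In old CR against old AL, upper-quartile factors gave -0.025 for let-7d, -0.030 for let-7f, -0.090 for let-7i and -0.022 for miR-98. Library totals alone gave -0.14 for let-7a, -0.012 for let-7c, -0.14 for let-7d, -0.095 for let-7f, -0.17 for let-7i and -0.031 for miR-98. Totals without miR-1 gave -0.026 for let-7a, -0.034 for let-7d, -0.054 for let-7f, -0.083 for let-7i and -0.0022 for miR-98, and filterByExpr -0.0012 for let-7i.

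Leaving out each library in turn changed the sign of some estimates near 0. In old AL against young AL the range was -0.022 to 0.14 for let-7b and -0.0069 to 0.24 for let-7f. In old CR against young AL it was -0.034 to 0.15 for let-7b, -0.039 to 0.17 for let-7c, -0.11 to 0.17 for let-7e and -0.10 to 0.10 for miR-99a. For old CR against old AL it was -0.11 to 0.077 for let-7b, -0.0071 to 0.16 for let-7d, -0.056 to 0.17 for let-7f, -0.16 to 0.0085 for let-7g, -0.034 to 0.10 for let-7i and -0.029 to 0.19 for miR-98. The other members kept their sign, but most moved by more than 1.5 times. Against young AL, old AL gave 0.0065 to 0.17 for let-7a, -0.31 to -0.11 for let-7c, 0.11 to 0.32 for let-7d, 0.065 to 0.29 for let-7e, 0.12 to 0.32 for let-7g, 0.12 to 0.26 for let-7i and 0.056 to 0.28 for miR-98. Against young AL, old CR gave 0.071 to 0.28 for let-7a, 0.19 to 0.39 for let-7d, 0.057 to 0.28 for let-7f, 0.061 to 0.24 for let-7g, 0.15 to 0.29 for let-7i and 0.17 to 0.33 for miR-98. Against old AL, old CR gave 0.00080 to 0.19 for let-7a, 0.22 to 0.33 for let-7c and -0.27 to -0.020 for let-7e. The alternatives for miR-99a-5p and miR-100-5p were chosen after seeing the data.

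The number of all entries called depended on the tool. For old AL against young AL it was 24, with 84 in DESeq2 (99 without its filters), 53 over known miRNAs, 37 with filterByExpr, 13 with totals without miR-1, 6 with shared entries once, and 0 with library totals or the permutation test. Leaving out young AL replicate 3 gave 9. For old CR against young AL it was 68, with 109 in DESeq2 (129 without its filters), 41 in the permutation test and 45 to 67 with a library left out. For old CR against old AL it was 2, with 19 in DESeq2 (22 without its filters) and 0 with upper-quartile factors, both kinds of totals, the permutation test, no robust estimation, known miRNAs or shared entries once. No paired analysis was possible because the groups share no replicate number. Depth does not limit these values, since the lowest member count was 1822. The split of reads between near-identical members remains uncertain, and its effect was not tested. With shared entries counted once, 0 of 9 members were again called in all 3 comparisons. In that setting 6 of all entries were called in old AL against young AL. In old CR against old AL 0 of all entries were called, so the 0 of 9 there says nothing about the members.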

Other observations

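A predicted candidate was counted in 2 of the 18 libraries, old AL replicate 12 and old CR replicate 13, with 3271 to 3776 counts, and was at 0 in the other 16. In those 2 libraries miR-98-5p had 3230 to 3752 counts. Of 71 candidates compared with the members in the libraries where they were counted, 1 matched a member in this way.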
